A study of Homo sapiens with 11 samples.

Results

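PRKCB, PPP1R1A and VRK1 are 3 human genes of kinase signalling, examined here by their chromatin in SK-N-MC, an established line from Ewing sarcoma whose EWSR1::FLI1 fusion is an oncogenic transcription factor. They were chosen by name, as genes linked to the fusion, and each was taken as its annotated gene body plus 100 kb on each side on GRCh38. They are 3 of 20037 protein-coding genes in the gene table, and their windows held 241 of the 134925 peaks in 9 lists. The lists came from chromatin immunoprecipitation followed by sequencing (ChIP-seq) in cells labelled wildtype, 1 sample per target. The targets were FLI1, the NuRD subunits RBBP4, MTA2, HDAC2 and CHD4, and the histone marks H3K27me3, H3K4me3, H3K4me1 and H3K27ac. CHD4 was pulled down with an antibody to a Flag tag, and the labels do not say how cells came to carry the tag. The 2 input libraries were not analysed here. With 1 sample per target and unknown read depth, no value has a replicate error and no test between samples was possible.

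In Ewing sarcoma the fusion joins a transcription-activating part of EWSR1 to the DNA-binding part of FLI1, so an antibody to that part of FLI1 detects the fusion and any full-length FLI1 alike. The NuRD complex combines a nucleosome remodeller (CHD4) with histone deacetylases (HDAC2), a scaffold (MTA2) and a histone-binding subunit (RBBP4) that other complexes share. Of the histone marks, H3K27me3 is laid down by Polycomb at silenced genes, H3K4me3 lies at promoters, H3K4me1 at enhancers and H3K27ac at both when active. PRKCB encodes protein kinase C beta, a serine/threonine kinase switched on by calcium and diacylglycerol. PPP1R1A is not a kinase: it encodes an inhibitor of protein phosphatase 1 that acts once protein kinase A has phosphorylated it. VRK1 encodes a nuclear serine/threonine kinase that phosphorylates BANF1, a protein that ties chromatin to the nuclear envelope. PRKCB and PPP1R1A are known as genes that the fusion activates.

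Each window held at least 1 FLI1 peak, and the 3 genes differed widely in how many peaks surrounded them. PRKCB had 4 FLI1 peaks, PPP1R1A 2 and VRK1 1. Of all protein-coding genes, 12.7% had at least 1 FLI1 peak in the same kind of window, 2.62% at least 2 and 0.18% at least 4. Because the genes were chosen as linked to the fusion, these counts describe them and are no independent support for that link. Longer windows also catch more peaks, and the windows spanned 585 kb for PRKCB, 209 kb for PPP1R1A and 284 kb for VRK1, against a median of 224 kb.

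Per length, the PPP1R1A window was the densest of the 3. All 9 lists together gave 47.3 peaks per 100 kb there, from 99 peaks, and 70 of the 20037 genes had a higher density. PRKCB had 21.7 peaks per 100 kb, from 127 peaks, above 92.2% of genes. VRK1 had 5.28 per 100 kb, from 15 peaks, which lay below the all-gene median of 6.56. H3K27me3 gave no peak in any of the 3 windows, and 14.5% of genes had at least 1.

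**Figure D1:**
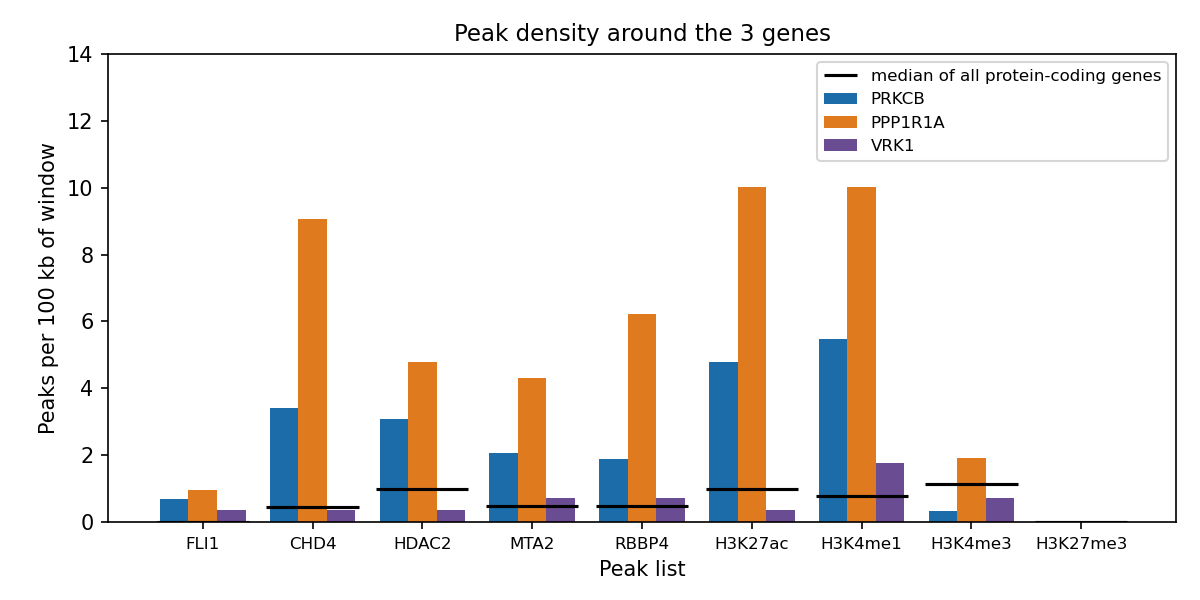
Peaks per 100 kb of window (vertical axis) for each of the 9 peak lists (horizontal axis), with bars for PRKCB, PPP1R1A and VRK1 and black lines for the median of all 20037 protein-coding genes. PPP1R1A has the tallest bar in each list with peaks, reaching 10.03 peaks per 100 kb for both H3K27ac and H3K4me1, while the VRK1 bars stay at or under 1.76.

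PRKCB lies on chromosome 16 from 23835983 to 24220611 and is read from the lower coordinate upward, per the RefSeq promoter table. Its start carried H3K4me3 in a pair of peaks on either side of the annotated start, and no FLI1 peak. The larger H3K4me3 peak (23836050 to 23837880) had a fold enrichment of 22.1, above 79.6% of the H3K4me3 list, and the smaller (23835528 to 23835938) one of 6.09, above 3.06%. HDAC2 was the only NuRD subunit within 1 kb of the start, in 3 peaks with fold enrichments of 4.67, 4.59 and 4.57. One weak H3K27ac peak lay there too, with a fold enrichment of 6.55, above 36.7% of its list. The nearest FLI1 summit was 30.9 kb inside the gene.

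The bases just before the PRKCB start are shown because an HDAC2 peak and the smaller H3K4me3 peak cover part of them. The summits of both peaks are at the same base, 23835673, which lies before the first base shown. Capitals mark the 152 of 250 bases that lie in the HDAC2 peak from 23835563 to 23835884, and the sequence is from RefSeq for chr16:23835733-23835982, plus strand.
PRKCB: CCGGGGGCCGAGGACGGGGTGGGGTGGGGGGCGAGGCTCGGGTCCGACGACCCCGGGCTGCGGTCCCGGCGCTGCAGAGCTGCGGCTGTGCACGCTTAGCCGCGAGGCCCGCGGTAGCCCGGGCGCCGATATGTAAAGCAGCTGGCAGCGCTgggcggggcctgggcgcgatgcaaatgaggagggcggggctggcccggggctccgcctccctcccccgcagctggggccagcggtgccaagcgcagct
G and C made up 77.2% of this window, against a median of 58% over the 35116 promoter windows of the same length. GGAA, the core that ETS factors such as FLI1 bind, was searched on both strands and did not occur, while 92.7% of the windows held it at least once. GGGCGG, the GC box, occurred 2 times on both strands together, and 42.6% of the windows held it. These are letter matches in 1 window and say nothing about where a factor bound. No promoter sequence was used here for PPP1R1A or VRK1.

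The PRKCB peaks were concentrated in the part of the gene nearest its start. Of the 127 peaks, 57 had their summit within the first 100 kb of the gene and 28 in the next 100 kb. The following 100 kb held 5, and the remainder of the gene 1, an MTA2 peak. Before the start, 24 peaks lay within 100 kb, among them 5 CHD4 and 4 HDAC2 peaks. H3K4me1 was the most frequent mark with 32 peaks, 26 of them overlapping the gene, followed by H3K27ac with 28 and 21.

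The strongest FLI1 peak at PRKCB (23902582 to 23902881) had its summit 66.8 kb inside the gene. Its fold enrichment was 16.4 and its −log10 p 62.4, and 96.2% of the FLI1 list had a lower fold enrichment. A second, weak FLI1 peak (23901334 to 23901549) lay beside it, with a fold enrichment of 3.55, above 1.92% of the list. Both fell in 1 site of 3205 bp (23900716 to 23903920) that held all 4 subunits. The highest CHD4 peak of the site had a fold enrichment of 7.80, above 96.3% of its list, and the highest HDAC2 peak one of 8.10, above 94.1%. MTA2 reached 8.31, above 76.2%, and RBBP4 5.91, above 85.6%. The CHD4 peak alone was 3054 bp wide.

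That site lay in the most acetylated stretch of PRKCB. H3K27ac peaks joined within 12.5 kb formed a domain of 16.6 kb (23899026 to 23915587) in which 5 peaks covered 11.7 kb. By covered length it ranked 90 of 11249 such domains. The strongest H3K27ac peak (23902857 to 23909717) was 6861 bp wide and had a fold enrichment of 18.04, above 96.99% of its list. The strongest H3K4me1 peak of the window (23903369 to 23904997, fold enrichment 8.30) lay under it. Neither FLI1 peak overlapped H3K4me1, whose nearest edge was 231 bp from the summit of the strong FLI1 peak.

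The other FLI1 peaks of the PRKCB window also sat on all 4 subunits. The peak at 23866766 to 23867068, 30.9 kb inside the gene, had a fold enrichment of 7.12, near the middle of the list (above 47.98%). RBBP4 there had a fold enrichment of 6.47, above 90.5% of its list, and MTA2 one of 7.29. No H3K27ac peak overlapped it, and the nearest H3K27ac edge was 380 bp from its summit. The peak at 24312969 to 24313375 lay 92.5 kb beyond the far end of PRKCB, inside CACNG3, a gene named after calcium channel subunits. It had a fold enrichment of 6.77, and the MTA2 peak on it, at 15.8, was above 98.9% of the MTA2 list. Which gene this peak acts on was not tested.

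**Figure D2:**
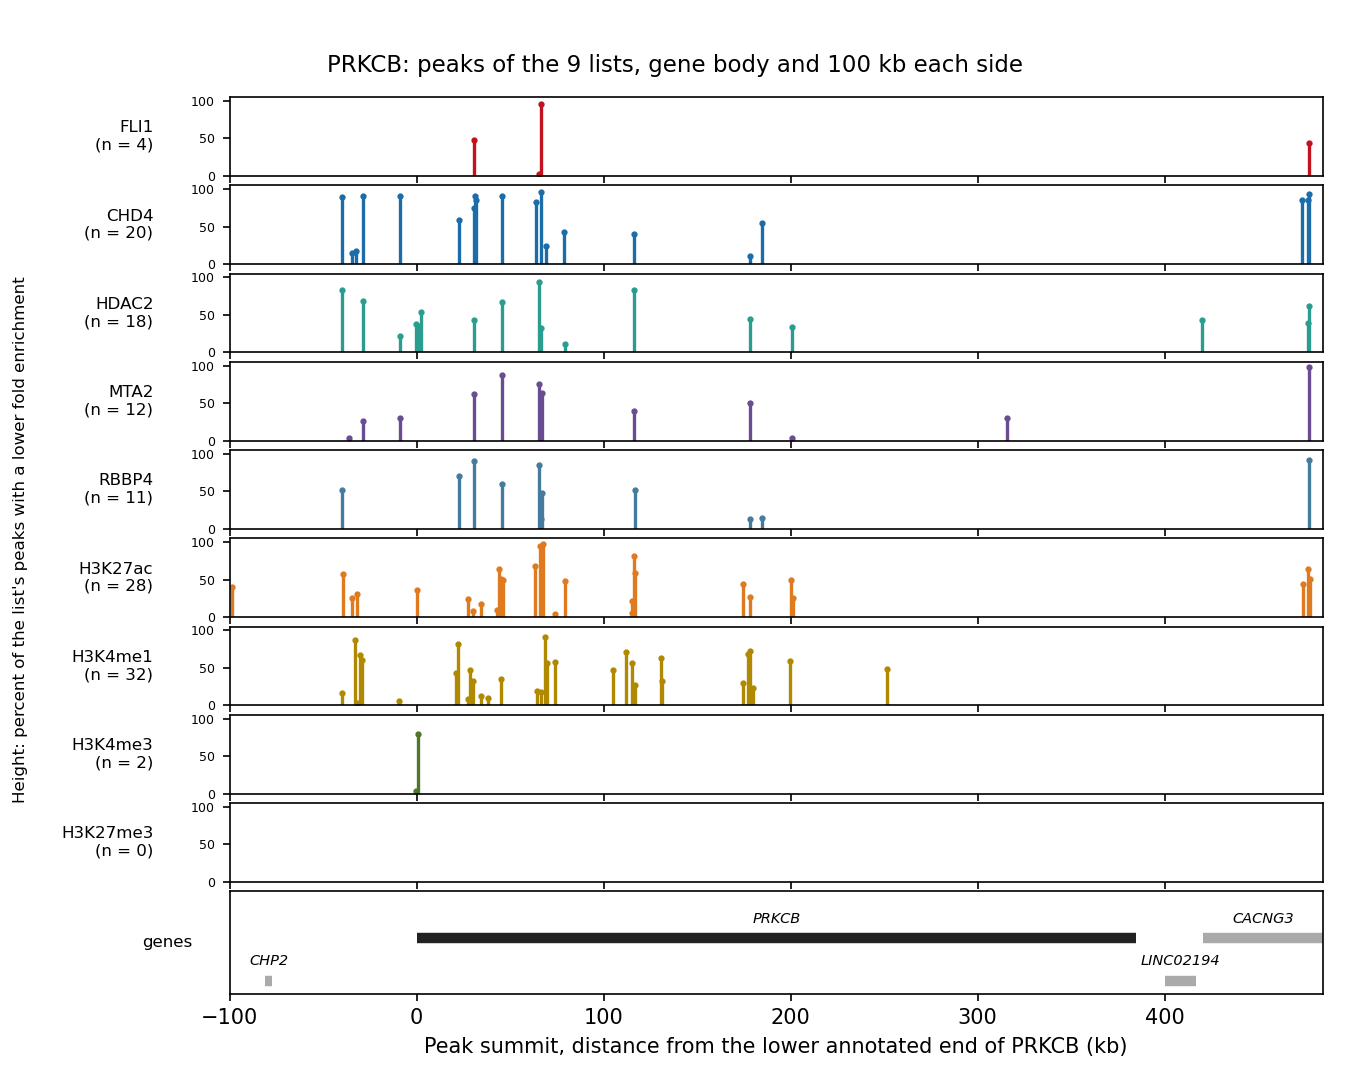
Peaks in the PRKCB window by list (1 row each): position of the summit in kb from the lower annotated end of PRKCB (horizontal axis) and percent of the list's peaks with a lower fold enrichment (vertical axis), with annotated genes of at least 1 kb as bars at the bottom. FLI1 has peaks at 30.9, 65.5, 66.8 and 477 kb, none at the start, and H3K27me3 has none.

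Sites with all 4 subunits numbered 6 in the PRKCB window, among 27 sites with at least 1 subunit. Of all protein-coding genes, 37.9% had at least 1 such site in the window. FLI1 overlapped 3 of the 6. The others were inside the gene and without FLI1. At 45.8 kb (23881502 to 23882133) MTA2 had a fold enrichment of 9.69, above 87.7% of its list, and CHD4 one of 6.82, above 90.9%. At 116 kb (23952133 to 23952764) HDAC2 stood at 6.78, above 83.8%, beside H3K27ac at 11.4. The other subunits there were lower, above 39.94% (CHD4), 39.98% (MTA2) and 51.96% (RBBP4) of their lists. The site at 178 kb (24013946 to 24014549) was weak, with CHD4 at 3.44 and RBBP4 at 3.19.

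PPP1R1A is a short gene of 9.41 kb on chromosome 12, from 54579246 to 54588659. Its higher-coordinate end carried the strongest H3K4me3 peak of the 3 windows. That peak (54587059 to 54589331) had a fold enrichment of 28.6 and a −log10 p of 143.6, above 96.04% of its list by fold enrichment. It lay with H3K27ac at a fold enrichment of 12.5, CHD4 at 5.43 and HDAC2 at 3.87. No MTA2, RBBP4 or FLI1 peak was within 1 kb of that end. The lower-coordinate end, 7 bp from the end of PDE1B, a phosphodiesterase gene, had 1 H3K4me1 peak within 1 kb and no H3K4me3.

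Inside the gene, at 2.61 kb from the lower end (54581487 to 54582216), a site held all 4 subunits. Its peaks were of middling or low height: the fold enrichment was 5.57 for HDAC2, 4.68 for RBBP4, 4.66 for CHD4 and 5.19 for MTA2, above 20.2% (MTA2) to 62.7% of each list. The H3K4me1 peak over it (54580744 to 54582989) was stronger, at a fold enrichment of 9.29, above 96.8% of its list. No FLI1 peak overlapped the gene body.

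Both FLI1 peaks of the window lay outside PPP1R1A and were strong. The first (54502513 to 54502826) lay below the lower end, at -76.6 kb, inside NCKAP1L, a gene of blood cells, and 4.91 kb from an end of that gene. Its fold enrichment was 13.6 and its −log10 p 57.9, above 88.1% of the FLI1 list by fold enrichment. The second (54624757 to 54625201) was 36.3 kb beyond the higher end, between genes, with a fold enrichment of 14.4 and a −log10 p of 71.9, above 91.3% of the list. Each overlapped all 4 subunits and a strong H3K27ac peak, with fold enrichments of 17.7 and 20.9. The summit of the second FLI1 peak lay inside its H3K27ac peak, while that of the first was 82 bp outside. An H3K4me3 peak (54497662 to 54502457, fold enrichment 13.4, above 35.7% of its list) covered the nearer end of NCKAP1L. Its edge was 203 bp from the summit of the first FLI1 peak. Which gene either FLI1 peak acts on was not tested.

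At both FLI1 peaks CHD4 ranked highest of the 4 subunits within its list and MTA2 lowest. At the second FLI1 peak, CHD4 had a fold enrichment of 8.32 (above 97.8%), HDAC2 5.51 (above 61.3%), RBBP4 4.51 (above 58.03%) and MTA2 4.04 (above 4.41%). At the first, CHD4 had 6.79 (above 90.7%), RBBP4 5.65 (above 82.6%), HDAC2 6.24 (above 76.4%) and MTA2 6.34 (above 43.8%). The strongest MTA2 and HDAC2 peaks of the window were elsewhere, at a site without FLI1 23.3 kb beyond the higher end (54611566 to 54612423). There MTA2 had a fold enrichment of 10.6 and HDAC2 7.12, above 91.5% and 87.3% of their lists.

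With H3K27ac peaks joined within 12.5 kb, the second FLI1 peak belonged to a long acetylated stretch that began inside PPP1R1A. H3K27ac peaks joined within 12.5 kb ran for 46.3 kb (54580878 to 54627203), and the 15 peaks in it covered 20.3 kb. By covered length the domain ranked 12 of 11249. It held 4 of the 6 sites with all 4 subunits in the window and 1 FLI1 peak. When peaks were joined within 5 kb, a setting chosen after seeing the data, the largest domain of the window spanned 33.03 kb, covered 14.6 kb and ranked 29 of 12727. It ended at 54613904, before the second FLI1 peak, because the next H3K27ac peak began only at 54621369. The link from the gene to that FLI1 peak thus depended on the joining distance. The other sites with all 4 subunits lay at the first FLI1 peak and at 54549188 to 54549568, next to the start of PDE1B. The PDE1B site was among the weakest, with CHD4 at a fold enrichment of 2.71.

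**Figure D3:**
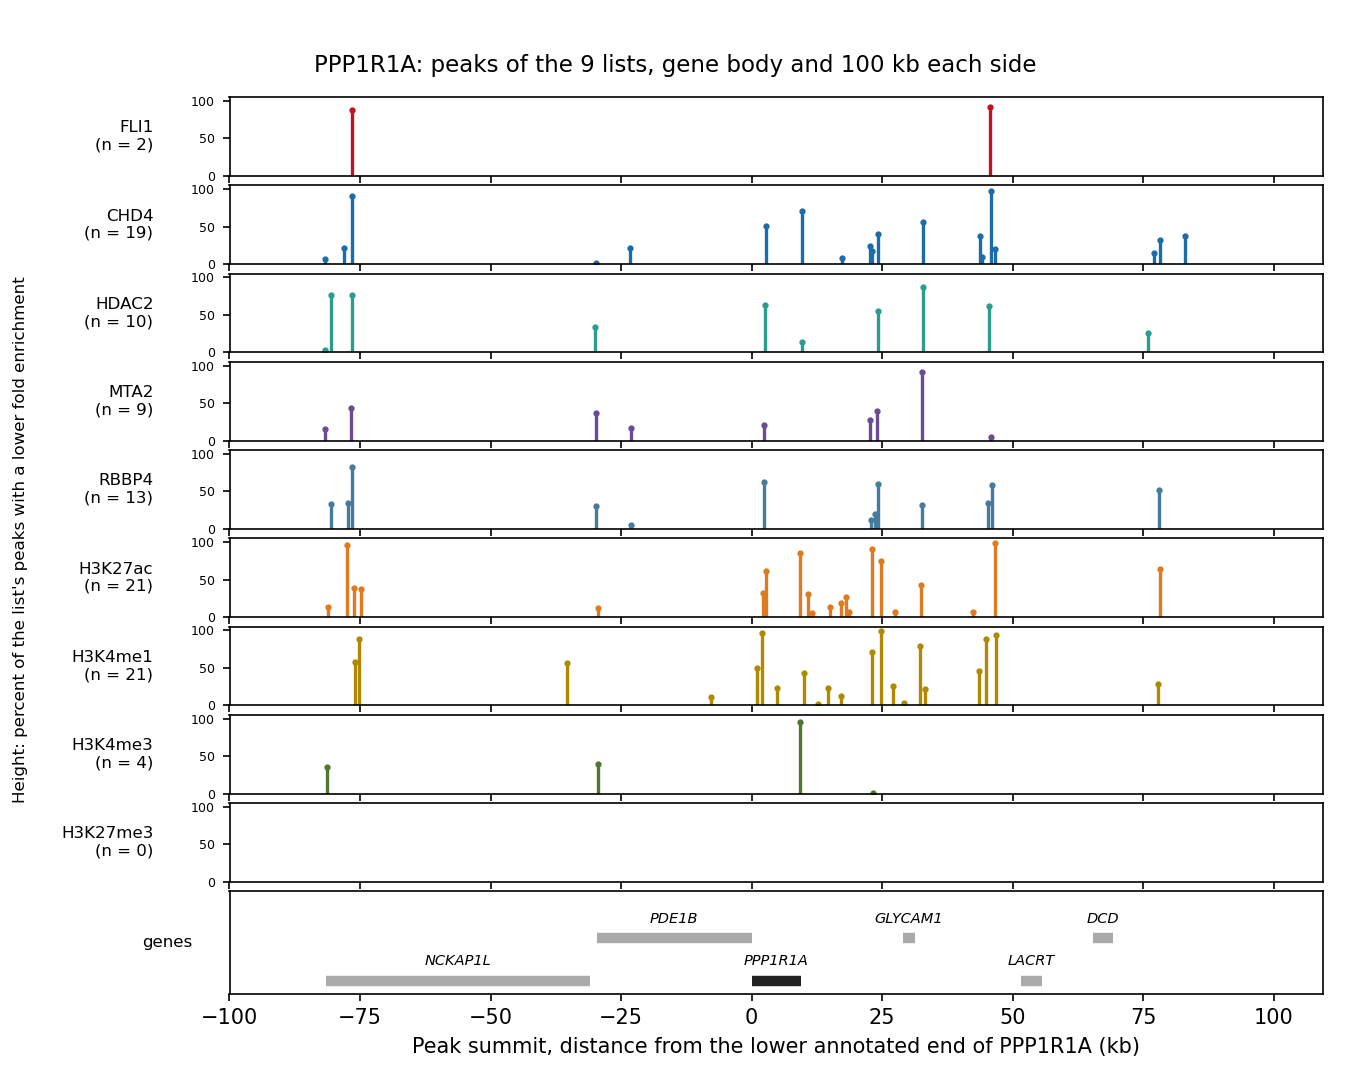
Peaks in the PPP1R1A window by list (1 row each): position of the summit in kb from the lower annotated end of PPP1R1A (horizontal axis) and percent of the list's peaks with a lower fold enrichment (vertical axis), with annotated genes as bars at the bottom. The 2 FLI1 peaks lie at -76.6 and 45.7 kb, on either side of the gene, and H3K27ac and H3K4me1 peaks lie along the interval from the gene to the second one.

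Fold enrichment and −log10 p ranked the peaks of this window differently. The 19 CHD4 peaks had a median rank above 24.6% of the list by fold enrichment and above 58.9% by −log10 p. For the 21 H3K4me1 peaks the same ranks were 46.2% and 81.2%. They lay closer together for HDAC2 (58.4% and 71.0%), RBBP4 (33.8% and 45.3%) and MTA2 (27.4% and 42.2%). The local background recovered from both values ranged over 7 lists from 0.992 times the list median for H3K27ac and 1.16 for HDAC2 to 1.36 for H3K4me1, and it was 1.29 for CHD4. In the PRKCB window it ranged over 7 lists from 0.773 times the list median for CHD4 to 1.20 for FLI1, with a median of 0.977. The recovered background at PPP1R1A was thus above the list median in 6 of 7 lists, and the cause was not tested. Because the background is solved from the same deposited values, it restates the difference in ranks and is no separate observation.

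VRK1 lies on chromosome 14 from 96797382 to 96881609, and its window was sparse. At its lower-coordinate end FLI1, MTA2, H3K4me3 and H3K27ac met within 1 kb. The FLI1 peak (96797193 to 96797385) was weak, with a fold enrichment of 4.20 and a −log10 p of 7.57, above 7.05% and 2.95% of the list. The FLI1 list reached down to a −log10 p of 5.02 and the RBBP4 list to 7.01, while the other lists stopped near 9, so a peak of this height would be missing from those. The MTA2 peak over it (96797140 to 96797425) was strong, with a fold enrichment of 12.6, above 96.3% of its list, and its summit lay 38 bp from that of FLI1. H3K4me3 had a fold enrichment of 27.4, above 94.3%, and H3K27ac 8.11, above 57.8%. CHD4, HDAC2 and RBBP4 had no peak in or within 90 kb of that end.

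All 4 subunits met once in the VRK1 window, 7.21 kb beyond the higher-coordinate end (96888500 to 96889145) and outside any annotated gene. The fold enrichment was 13.1 for MTA2, above 96.9% of its list, and 8.15 for HDAC2, above 94.2%. For RBBP4 it was 7.43, above 95.5%, and for CHD4 5.11, above 64.1%. Averaged over the 4 subunits this rank was above that of 89.3% of the 4917 sites with all 4 in the lists. The site had no FLI1 peak within 91.1 kb and no H3K27ac peak within 90.6 kb. An H3K4me1 peak of fold enrichment 5.79 lay 308 bp away. The remaining peaks of the window were 4 H3K4me1 peaks and 1 H3K4me3 peak from 49 to 62 kb before the lower end, near the long non-coding gene LINC02299, and 1 RBBP4 peak.

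**Figure D4:**
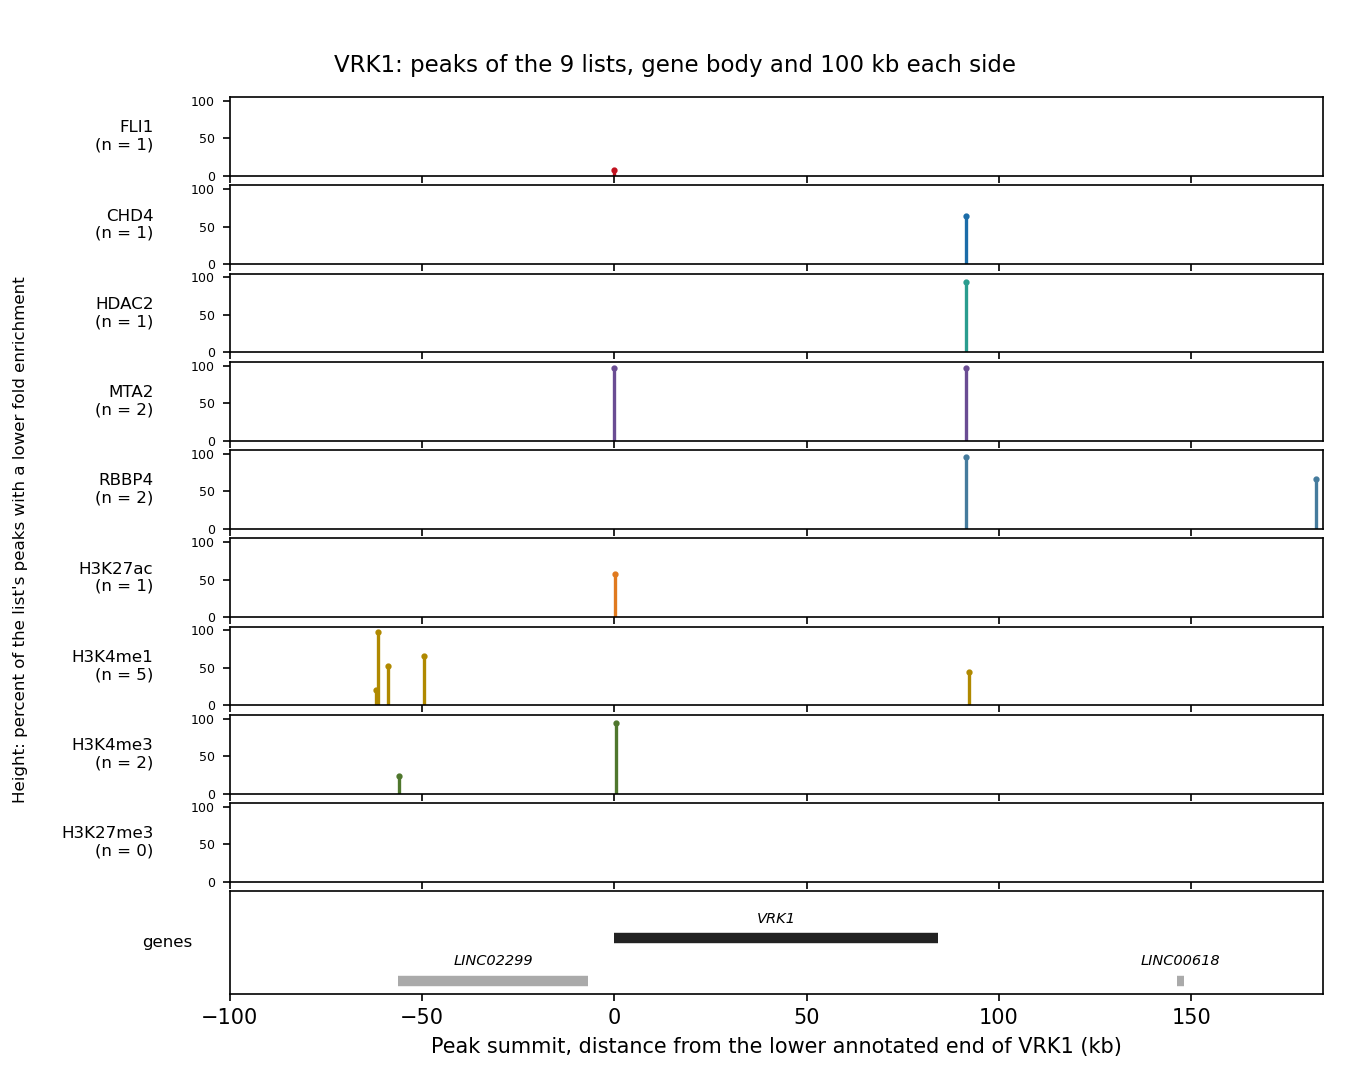
Peaks in the VRK1 window by list (1 row each): position of the summit in kb from the lower annotated end of VRK1 (horizontal axis) and percent of the list's peaks with a lower fold enrichment (vertical axis), with annotated genes as bars at the bottom. The FLI1 peak sits at -0.132 kb with MTA2, H3K4me3 and H3K27ac, and all 4 subunits have a peak near 91.4 kb, where FLI1 and H3K27ac have none.

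Set side by side, the FLI1 peaks of the PRKCB and PPP1R1A windows lay on all 4 subunits, away from the ends of those 2 genes. The FLI1 peak at VRK1 lay at the gene end with MTA2 as the only subunit. Of the 7 FLI1 peaks, 6 overlapped all 4 subunits, against 55.4% of all 1561 FLI1 peaks. Among peaks with a −log10 p of at least 15, 3 of 5 FLI1 peaks in the windows did so, against 53.1% of 972. At least 1 FLI1 peak on all 4 subunits was found in 2 of the 3 windows and in those of 6.03% of all genes. H3K27ac overlapped 6 of the 7, against 49.3% of all, where overlap meant at least 1 bp. Some of these FLI1 summits lay outside H3K27ac: by 118 bp in CACNG3, 82 bp in NCKAP1L and 132 bp at VRK1. H3K4me3 overlapped 1 of the 7, the one at VRK1, against 8.46%, and H3K4me1 overlapped none, against 8.01%. With 7 peaks these shares describe the 3 windows only, and peaks within a window are not independent of each other.

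FLI1 and subunit summits were close at most of these places. In the 6 peaks with all 4 subunits, the nearest HDAC2 summit was 23 to 199 bp from the FLI1 summit and the nearest RBBP4 summit 12 to 240 bp. For MTA2 the distance was 40 to 504 bp and for CHD4 89 to 1103 bp, the longest being at the weak FLI1 peak under the wide CHD4 peak of PRKCB. The requirement of overlap itself keeps these distances short.

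By fold enrichment, FLI1 and subunit heights did not follow 1 order over these sites. The FLI1 peak of highest fold enrichment, in PRKCB, overlapped an RBBP4 peak with a fold enrichment above 12.6% of its list, and an HDAC2 peak of 4.51, above 32.6%. The CHD4 peak on it was high, at 7.80 (above 96.3%), and the MTA2 peak stood at 7.34 (above 62.8%). Its weak neighbour overlapped the same CHD4 peak and the higher HDAC2 and RBBP4 peaks of the same site. CHD4 was above 90.7% and 97.8% at the FLI1 peaks of PPP1R1A. It was also above 93.9% at the FLI1 peak in CACNG3, which was above 43.8% of the FLI1 list. At VRK1 a FLI1 peak above 7.05% of its list lay on an MTA2 peak above 96.3%. Over the 3 windows, 13 sites held all 4 subunits and FLI1 overlapped 5 of them, against 17.2% of all such sites. H3K27ac overlapped 10 of the 13, against 62.8%, and H3K4me1 8, against 53.4%. H3K4me3 overlapped 3, against 30% of all such sites, and all 3 were in the PPP1R1A window but outside PPP1R1A itself.

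**Figure D5:**
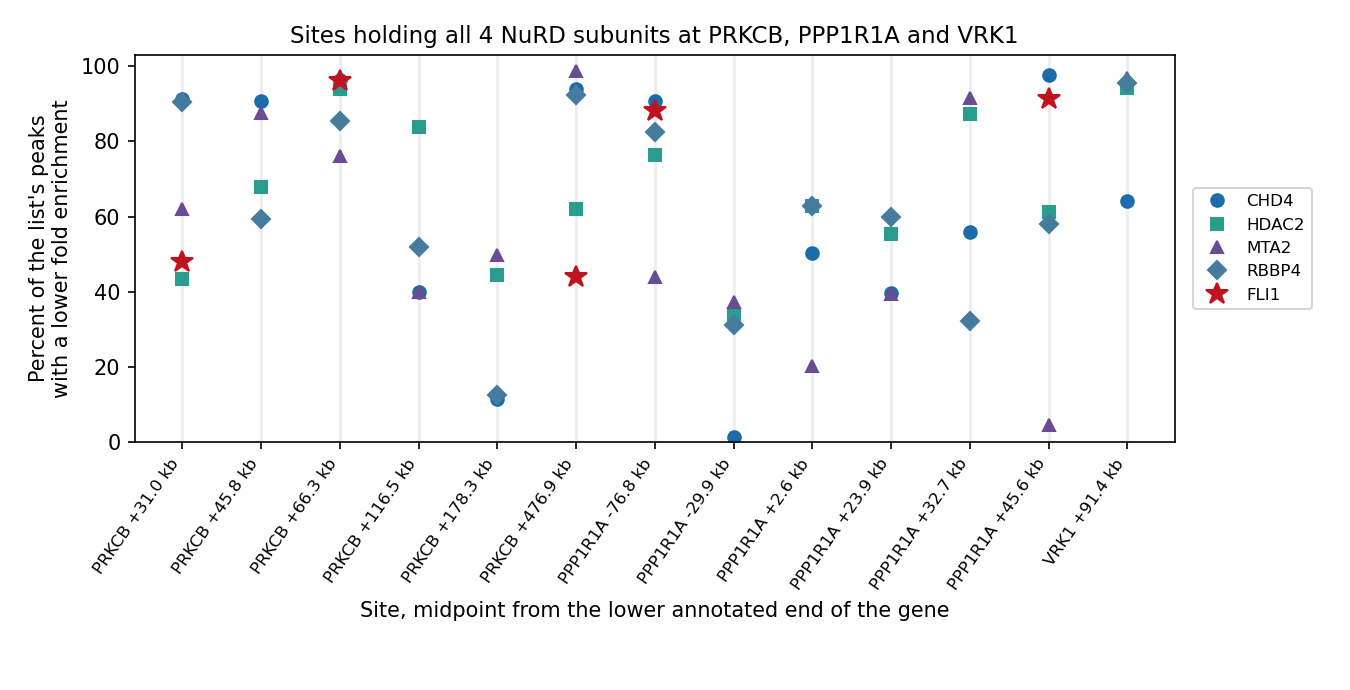
The 13 sites with all 4 NuRD subunits (horizontal axis, gene and midpoint in kb from its lower annotated end) and the percent of each list's peaks with a lower fold enrichment (vertical axis), 1 symbol per list, taking the highest peak where a site holds several. FLI1 stars appear at 5 sites. The VRK1 site has 3 of its 4 subunits above 94% of their lists and no star.

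Of 21 other genes of the same pathways, most had no FLI1 peak in their window. They were 8 other protein kinase C genes, 10 genes of protein phosphatase 1 and protein kinase A, and VRK2, VRK3 and BANF1. FLI1 peaks lay in the windows of 4 of them (19.05%, against 12.7% of all genes): PRKCA, PRKCE, PRKCZ and PRKACA. Their median density was 5.97 peaks per 100 kb, close to the all-gene median of 6.56. H3K27ac was present in 20 of 21 windows (77.8% of all genes), HDAC2 in 20 (81.3%), H3K4me3 in 19 (85.1%), RBBP4 in 19 (71.1%), MTA2 in 17 (70%), H3K4me1 in 16 (65.9%) and CHD4 in 15 (61.4%). H3K27me3 was present in 4 (14.5% of all genes).

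Among them PRKCA, the alpha form of the kinase, had the strongest FLI1 peak. It lay 81.2 kb outside the gene, with a fold enrichment of 15.6, above 94.7% of the list, and overlapped all 4 subunits. PRKCE had 1 at 7.41, also with all 4 subunits and 83.2 kb outside the gene. PRKCZ had 3, the highest at 6.42 and without all 4. The peak at PRKACA, the catalytic subunit of protein kinase A, was weak at 3.95. PRKCQ, known for its role in T cells, had no peak of any of the 9 lists in its window.

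Genes with the most similar pattern were found from 9 values per gene, the percent of each list below the gene's strongest peak, by Euclidean distance. PRKCB was nearest to SAP18, SKA3 and MRPL57, neighbours on chromosome 13 that share the same peaks, at a distance of 6.01 against a median of 167 over all genes. PPP1R1A was nearest to GLG1, at 11.3 (median 162). VRK1 was nearest to the neighbours PPP1R21 and STON1, at 17.1, and to KLHL29, at 19.96 (median 127). None of those 3 had a FLI1 peak in its window, where VRK1 itself has the value 7.05% for FLI1.

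As a check of the cell line's label, 6 genes known to be activated by the fusion (NKX2-2, NR0B1, CCND1, STEAP1, LIPI and CD99) were looked up. All 6 had at least 1 FLI1 peak and 1 H3K27ac peak in the same kind of window. Of all protein-coding genes, 12.7% had a FLI1 peak there and 77.8% an H3K27ac peak. The best FLI1 peak had a fold enrichment of 15.6 at CD99, 14.7 at NKX2-2 and 14.4 at LIPI, each on all 4 subunits. At CCND1 it was 9.05 (above 65.5% of the list), at STEAP1 5.74 (above 29.9%) and at NR0B1 5.45 (above 25.9%), none on all 4 subunits.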

How the data were processed

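ChIP-seq peak lists for 9 targets in SK-N-MC were used, 1 per target, and each sample's group is the target its title names. The submitters' processing notes list GRCh38 and bedtools 2.27.1, deepTools 3.2.1, SAMtools 1.9, BWA 0.7.17, FastQC 0.11.7 and Trimmomatic 0.36. Peak names carry MACS2, per the deposited lists, while the sources used here name neither its version nor the control library, nor whether replicates were pooled. Each peak has a fold enrichment (a ratio over local background), a −log10 p and a −log10 q, and a score, all as deposited by the authors. The score and the q-value were not used, and heights were compared only within a list. The FLI1 list starts at a −log10 p of 5.02, the RBBP4 list at 7.01 and the other 7 near 9, which makes list lengths unlike.

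Positions were made 1-based. Genes came from a RefSeq table of GRCh38 without strand or exons, so exons and introns were not told apart, and the PRKCB promoter came from RefSeq. Overlap meant at least 1 bp. Overlapping subunit peaks were merged into sites. Local background was solved as the mean of a Poisson distribution matching both deposited values (fold enrichment and p-value), assuming the usual MACS2 definitions with 1 added. Counting, merging and solving were tested on simulated data. Computation used Python 3.11.15, pandas 2.3.3, numpy 2.4.6 and scipy 1.17.1. The named items were the 3 genes, their FLI1 peaks, sites with all 4 subunits, strongest peaks, peaks within 1 kb of a gene end, genes in the windows, the 3 most similar genes each (some are not reported here), and pathway genes with FLI1 peaks. Members and lists were chosen with earlier results of these data known. PRKCQ and the subunit peaks at single sites were singled out after their values were seen. Alternatives were a −log10 p of at least 15, smaller windows, stricter overlap and −log10 p as height.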

Additional observations from a re-analysis of the deposited data

How the results depend on the processing

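No paired analysis was possible because each target had 1 sample. Of 47 alternative values, 30 kept within 1.5 times the main count or within the 95% Wilson interval of the main percentage, and 17 did not. When peaks under a −log10 p of 15 were dropped, sites with all 4 subunits fell to 3 at PRKCB and 3 at PPP1R1A, FLI1 peaks on all 4 subunits to 2 at PRKCB and 1 at PPP1R1A, and at VRK1 the peaks fell to 9 and FLI1 peaks to 0. With 50 kb on each side, PPP1R1A had 1 FLI1 peak, and that 1 overlapped all 4 subunits. With the gene body alone, PPP1R1A had 12 peaks, 0 FLI1 peaks, 1 site with all 4 subunits and 0 FLI1 peaks on all 4, and VRK1 had 4 peaks and 0 such sites. These follow from fewer peaks or a shorter window. With −log10 p as the height, the strongest FLI1 peak was above 92.2% of the list at PRKCB, 94.9% at PPP1R1A and 2.95% at VRK1. Requiring the FLI1 summit inside each subunit, or 50% of the FLI1 peak covered, left 3 FLI1 peaks on all 4 subunits at PRKCB, 2 at PPP1R1A and 0 at VRK1. Depth is unknown, so a missing peak does not show that the protein or mark was absent.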
